A study of Mus musculus with 2 samples.

Results

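The genes that build and fuel skeletal muscle fibers were examined in single αSMA-labeled cells sorted from mouse periosteum. The set held 32 genes, chosen by name from a fixed list of fast contractile, slow contractile, shared structural and metabolic genes, of the 17938 genes listed for the plates. All 32 were listed for the mixed plate, which held the 2-day and 13-week cells, and 29 for the plate of the 6-week cells. Myh4, Casq1 and Ampd1 were not listed for the 6-week plate and were counted as 0 there. Wells were grouped by time point and by their summed UMIs of these genes (0, 1 to 9, and 10 or more). A UMI is a tag that marks 1 captured RNA molecule.

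A skeletal muscle fiber contracts through thick filaments of myosin and thin filaments of actin, tropomyosin and troponin. Fast and slow fibers use different copies of the same parts. Fast fibers carry fast troponins, fast myosin light chains and the myosin heavy chains Myh4, Myh1 and Myh2, while slow fibers carry their slow counterparts and Myh7. Slow fibers are rich in myoglobin and mitochondria, and many fast fibers depend more on glycolysis. Fibers are long multinucleated cells that lie against the periosteum in the limb.

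αSMACreER/Ai9 mice switch on the Tomato reporter after tamoxifen in cells that use the αSMA promoter, and the label passes to their descendants. Tomato+ cells were sorted 1 per well from tibia and femur periosteum, with dead cells excluded by DAPI and no antibody used. Mice received 2 doses of tamoxifen at 75 mg/kg. The 2-day and 6-week cells came from aSMACreER/Ai9/Col2.3GFP females aged 10.3 and 14.4 weeks, chased for 2 and 43 days. The 13-week cells came from aSMACreER/Ai9/R26-M2rtTA/TetOP-H2B-GFP females aged 20.1 weeks and chased for 96 days, which had also received doxycycline for 5 weeks early in life. At 13 weeks, the effects of strain, age, doxycycline and length of chase cannot be told apart, and the 6-week cells were on a plate of their own. Each time point was 1 pool of mice, so no test between time points was possible, and all intervals are 95% intervals for counting error only.

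Of 600 wells, 503 had 200 or more detected genes and are called kept wells here, with 181 at 2 days, 189 at 6 weeks and 133 at 13 weeks. Kept wells held 445796 UMIs, with a median of 727 per well (range 246 to 3928). The 97 wells under 200 genes held 16690 UMIs and were counted separately. The sort was for periosteal cells. A UMI of a fibroblast or progenitor marker was found in 478 of the 486 kept wells with under 10 muscle fiber UMIs and in each of the 17 others, so its presence does not tell wells apart, and the levels of the list are given below.

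Muscle fiber transcripts were concentrated in few wells. Wells with 10 or more muscle fiber UMIs are called rich wells below. In the kept wells, 17 of 503 (3.38%, 1.98 to 5.36) had 10 or more muscle fiber UMIs, and these wells held 1506 of the 1844 muscle fiber UMIs. In 257 kept wells no such UMI was found, and 229 had 1 to 9. Among kept wells the groups with many and few were far apart, since muscle fiber genes made up 5.56% to 29.0% of all UMIs in the 17 wells and at most 1.205% in the 229. By time point, 1 of 181 kept wells had 10 or more at 2 days (0.552%, 0.0140 to 3.04). At 6 weeks there were 10 of 189 (5.29%, 2.57 to 9.51), and at 13 weeks 6 of 133 (4.51%, 1.67 to 9.56).

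The wells with few genes held a large part of the muscle fiber transcripts at 13 weeks. Of 59 wells under 200 genes at 13 weeks, 19 had 10 or more muscle fiber UMIs (32.2%, 20.6 to 45.6), compared with 2 of 27 at 6 weeks (7.41%, 0.910 to 24.3) and 0 of 11 at 2 days, which allows a share of up to 28.5%. The 19 wells had a median of 200 UMIs, and muscle fiber genes made up 5.50% to 28.4% of them. At 13 weeks the 59 wells held 619 muscle fiber UMIs among 9633, or 643 per 10000 (593 to 695), and the 133 kept wells of 13 weeks held 570 among 117824, or 48.4 per 10000 (44.5 to 52.5). With all wells counted, 25 of 192 had 10 or more at 13 weeks (13.0%, 8.61 to 18.6), against 12 of 216 at 6 weeks (5.56%, 2.90 to 9.50) and 1 of 192 at 2 days (0.521%, 0.0132 to 2.87). On the shared plate, the difference between 13 weeks and 2 days was thus 12.5 percentage points (7.501 to 18.1) over all wells and 3.96 points (0.185 to 9.04) over kept wells. The kept-well interval reached below 0 under 4 alternatives, 3 of which also changed the limit of 10 UMIs. It was 2.17 points (-1.67 to 7.48) at a minimum of 300 genes. With 10 or more reads in place of UMIs, a looser limit, it was 3.50 (-2.64 to 10.3). For 5 or more UMIs it was 3.81 (-0.957 to 9.53). After thinning to 300 UMIs, with a limit of 4, it was 2.03 (-1.69 to 6.89). Thinning left out the kept wells with under 300 UMIs, 6 at 2 days and 7 at 13 weeks. The 40 other wells under 200 genes at 13 weeks held 51 muscle fiber UMIs, or 84.4 per 10000 (62.8 to 111), above the 7.18 per 10000 (5.71 to 8.91) of the kept wells with under 10. Wells under 200 genes thus stood above kept wells in these transcripts at 6 and 13 weeks also where no well reached 10, with 52.3 per 10000 (32.4 to 80.0) in 25 wells at 6 weeks.

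**Figure D1:**
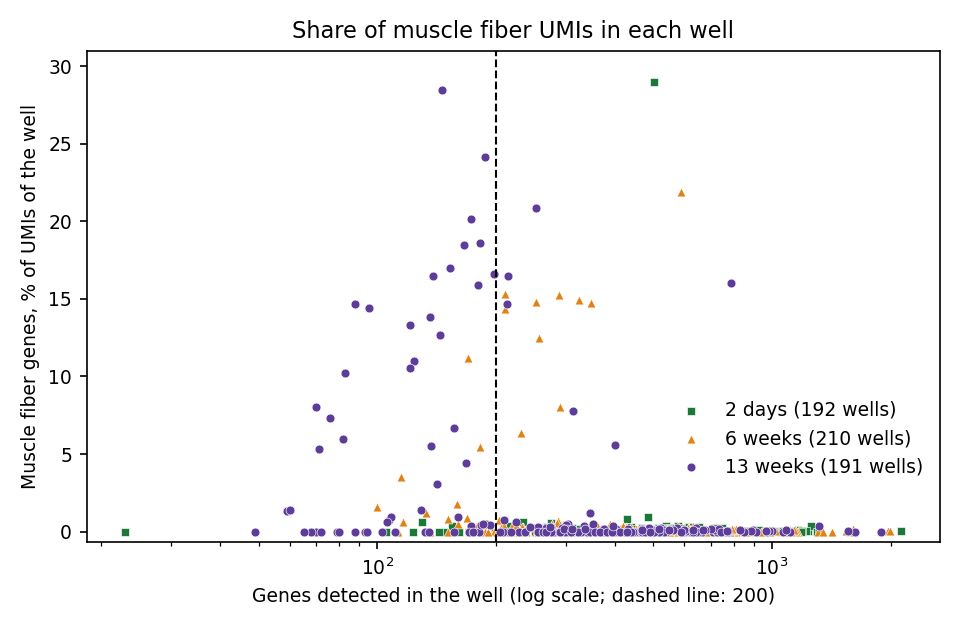
Each point is 1 well with at least 1 UMI, plotted by the genes detected in it (log scale) and the share of its UMIs from the 32 muscle fiber genes, with color and shape for the time point. Right of the 200-gene line, rich wells start at 5.56% and all other wells stay at or under 1.205%, while left of it the ranges overlap (from 5.44% and up to 8.0%). Of the rich wells, 19 of 25 lie left of the line at 13 weeks and 2 of 12 at 6 weeks.

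The wells with 10 or more UMIs fell to a fast or a slow side. Over all 38 such wells, fast contractile UMIs outnumbered slow ones in 31 and slow outnumbered fast in 7. No slow UMI was found in 25 of the wells, and in 26 the slow share of fast and slow UMIs was 10% or less. In 4 wells the slow share was 90% or more. Only 4 wells had 5 or more UMIs of each kind. The slow side held 6 of the 12 wells at 6 weeks, 1 of 25 at 13 weeks and 0 of 1 at 2 days. At 13 weeks, all 19 wells under 200 genes were on the fast side, and 15 of them had no slow UMI.

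**Figure D2:**
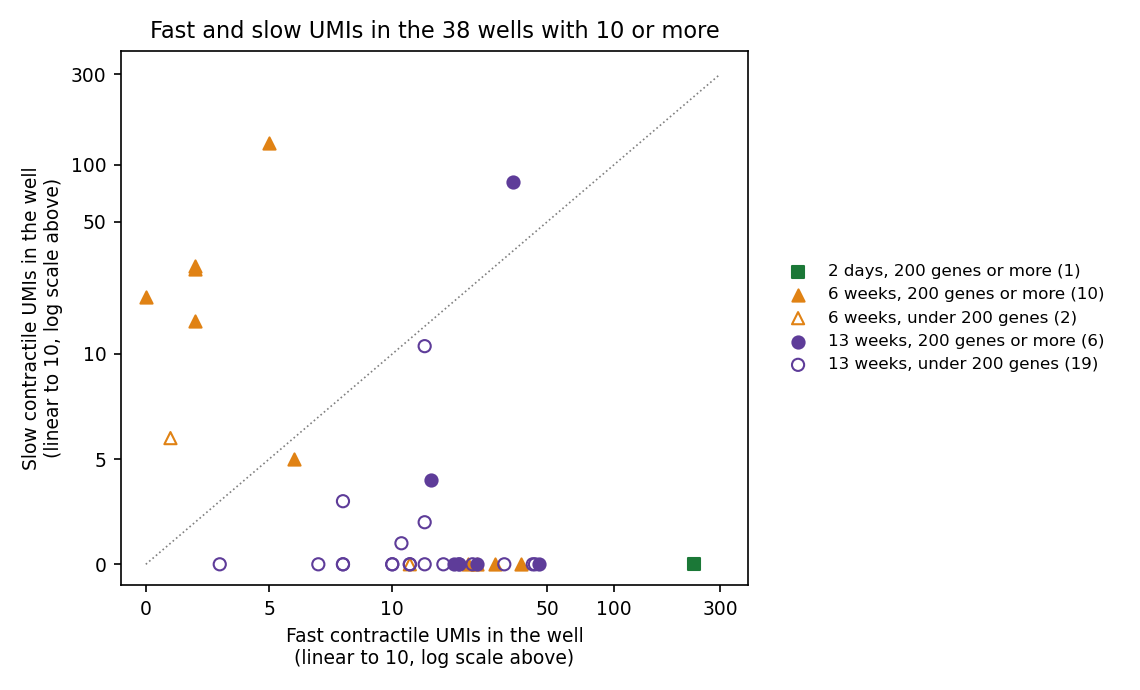
Each point is 1 of the 38 wells with 10 or more muscle fiber UMIs, plotted by its fast and slow contractile UMIs (both axes linear up to 10 and logarithmic above), with color and shape for the time point and filled symbols for wells of 200 genes or more. The dotted line marks equal numbers, 25 wells lie at 0 slow UMIs, and the 13-week point above the line has 35 fast and 81 slow UMIs.

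**Figure D3:**
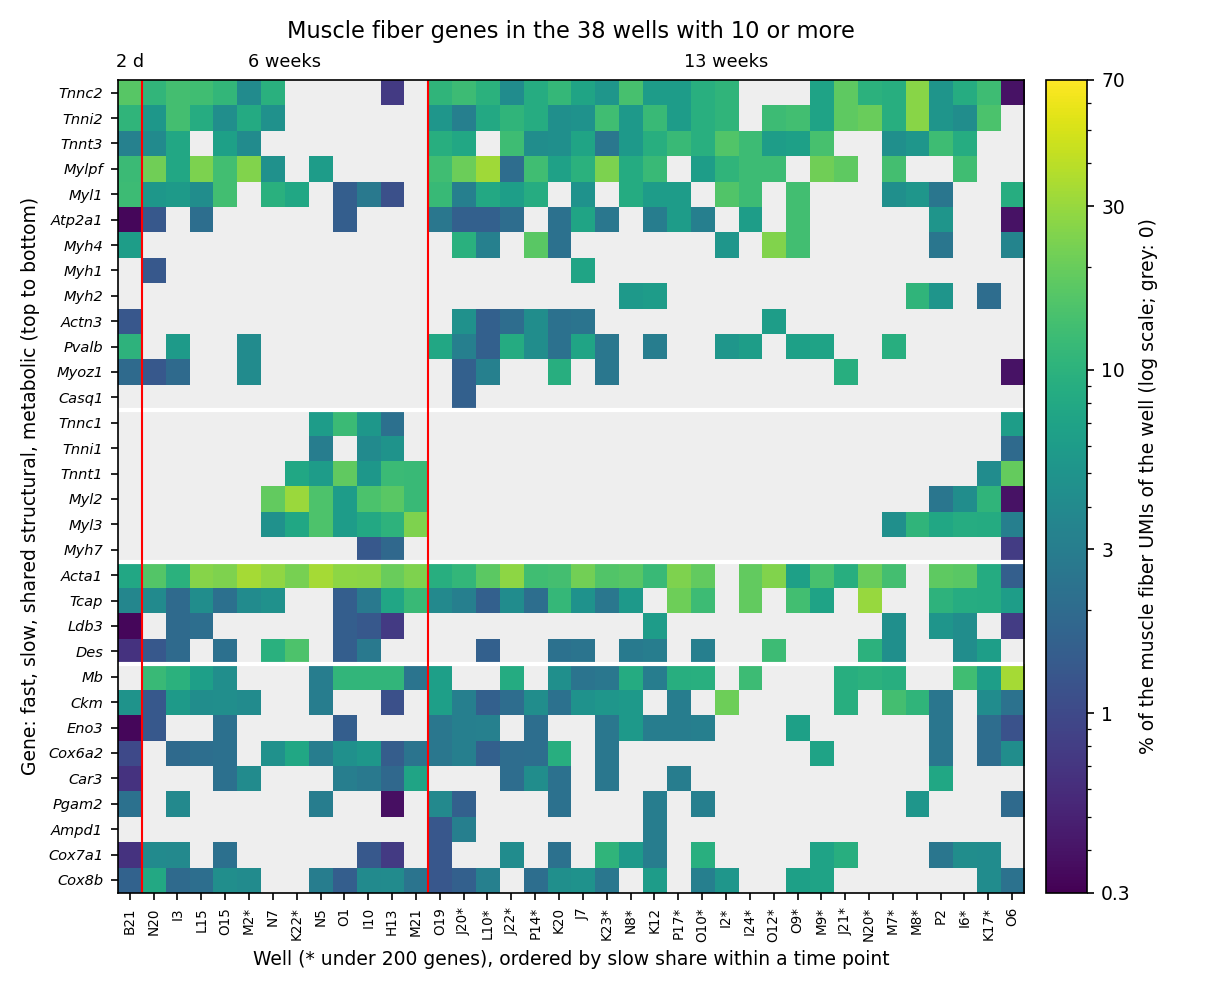
Columns are the 38 wells with 10 or more muscle fiber UMIs, rows are the 32 genes in the order fast, slow, shared structural and metabolic, and color is the share of the well's muscle fiber UMIs (log scale, grey for 0). Tnnc1 and Tnni1 are filled in 5 and 4 wells, each of them on the slow side, Tnni2 and Tnnt3 are empty in all 7 slow-side wells, and Acta1 is filled in 36 of 38 wells.

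A single well at each time point held a large part of the UMIs. At 2 days this was well B21, with 303 muscle fiber UMIs of 1046 (29.0%), of which 230 were fast and 0 slow. At 6 weeks it was well H13, with 265 of 1209 (21.9%), 5 fast and 130 slow. At 13 weeks it was well O6, with 255 of 1592 (16.02%), 35 fast and 81 slow. The other 6-week wells had 13 to 74 muscle fiber UMIs, and the other 13-week wells had 10 to 76.

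Fast troponin formed the core of the fast side. Tnnc2, Tnni2 and Tnnt3 encode the calcium-binding, inhibitory and tropomyosin-binding subunits of fast troponin. Over the 31 fast-side wells, Tnnc2 had 154 UMIs in 28 wells, Tnni2 had 120 in 30 and Tnnt3 had 77 in 25. In the 7 slow-side wells, Tnnc2 had 3 UMIs in 2 wells, and Tnni2 and Tnnt3 had 0. As a share of the muscle fiber UMIs of each side, Tnni2 took 8.79% (7.34 to 10.4) of 1365 on the fast side and 0% of 746 on the slow side, which allows up to 0.493%. The sides were set by fast and slow contractile UMIs, so these contrasts describe how completely the genes sort and are not a test.

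The slow troponins sorted the other way. Tnnc1, Tnni1 and Tnnt1 had 36, 22 and 106 UMIs in 5, 4 and 7 of the 7 slow-side wells. On the fast side Tnnc1 and Tnni1 had 0 UMIs in 31 wells, and Tnnt1 had 2 UMIs in 1 well. Tnnc2 and Tnnc1 were found together in 2 wells (H13 and O6), and the other troponin pairs in 0 of the 38. In kept wells with 10 or more UMIs at 2 days, the fast subunits had 52, 32 and 10 UMIs (Tnnc2, Tnni2, Tnnt3) against 0 for each slow subunit. At 6 weeks the pairs stood at 30 and 20 for Tnnc2 and Tnnc1, 18 and 17 for Tnni2 and Tnni1, and 10 and 56 for Tnnt3 and Tnnt1.

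The myosin light chains crossed sides more often. Mylpf, the fast regulatory light chain, had 173 UMIs in 25 fast-side wells and 2 in 1 slow-side well. Myl1, the fast essential light chain, had 97 UMIs in 21 fast-side wells and 30 in 5 slow-side wells, of which 23 were in well O6. Myl2 and Myl3, the slow regulatory and essential light chains, had 76 and 61 UMIs and were present in each of the 7 slow-side wells. They also had 11 UMIs in 4 and 13 UMIs in 6 fast-side wells. Each light chain was thus found on both sides, which held for Tnnc2 and Tnnt1 among the troponin subunits.

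Myosin heavy chains were sparse. A UMI of Myh1, Myh2, Myh4 or Myh7 was found in 25 of the 600 wells, 18 of which had 10 or more muscle fiber UMIs, and 2 wells held more than 1 of these genes. In 12 of the 25 wells there was a single heavy chain UMI, so that 13 wells could show more than 1 gene. Well P2 at 13 weeks had 2 UMIs of Myh2 and 1 of Myh4, and well O6 had 9 of Myh4 and 2 of Myh7. Myh4, the heavy chain of the fastest fibers, had 19 UMIs in well B21 and 37 in 12 wells at 13 weeks. Of these 37, 34 were in 9 of the 25 rich wells of that time point. Myh7, the slow heavy chain, had 5 UMIs in well H13 and 1 in I10 at 6 weeks. Myh2, Myh1 and Myh4 lie in a row on mouse chromosome 11, with 2535 and 13454 bases between neighbors, and are close copies, so that reads could be placed on the wrong gene.

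The other fast genes were found mainly on the fast side. Pvalb, a calcium buffer of fast fibers, had 62 UMIs in 17 fast-side wells, 31 of them in well B21, and 0 on the slow side. Actn3, the fast alpha-actinin of the Z-disc, had 14 UMIs in 8 fast-side wells and 0 on the slow side. Atp2a1, the calcium pump of fast fibers, had 22 in 16 and 2 in 2 wells, and Myoz1, a Z-disc protein, had 18 in 9 and 1 in 1. Casq1, the calcium store protein calsequestrin, had a single UMI in all wells.

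The shared structural genes were found on both sides. Acta1, skeletal muscle actin, took 14.5% (12.7 to 16.5) of the muscle fiber UMIs on the fast side and 15.95% (13.4 to 18.8) on the slow side, and the intervals overlapped. This rests on well O6, which had 4 Acta1 UMIs of 255. The other 6 slow-side wells, all at 6 weeks, gave 23.4% (19.7 to 27.4), above the whole fast side, and the 6 fast-side wells of 6 weeks gave 20.7% (15.9 to 26.1). Tcap, which caps titin at the Z-disc, took 5.05% (3.95 to 6.35) and 5.90% (4.32 to 7.84). Des, the intermediate filament desmin, had 21 UMIs in 16 fast-side wells and 5 in 3 slow-side wells. Ldb3, a Z-disc protein, had 9 UMIs in 7 and 6 in 4.

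The metabolic genes were found on both sides, with shares that depended on well O6. Mb, which encodes the oxygen-binding protein myoglobin, took 17.7% (15.02 to 20.6) of muscle fiber UMIs on the slow side and 3.96% (2.99 to 5.13) on the fast side. Well O6 alone gave 86 of the 132 slow-side UMIs, and without it, at 6 weeks, Mb took 9.37% (6.94 to 12.3) on the slow side and 7.28% (4.44 to 11.1) on the fast side, with overlapping intervals. By contrast, well B21 had 0 Mb UMIs among 303 muscle fiber UMIs. Ckm, muscle creatine kinase, stood the other way at 1.34% (0.645 to 2.45) on the slow side and 4.10% (3.11 to 5.29) on the fast side. Without O6, at 6 weeks, Ckm took 0.815% (0.222 to 2.07) on the slow side and 3.45% (1.59 to 6.44) on the fast side, with overlapping intervals. Cox7a1, a muscle subunit of cytochrome c oxidase, took 0.402% (0.0830 to 1.17) and 2.05% (1.37 to 2.95). Without O6 the slow side gave 0.611% (0.126 to 1.78), which overlaps the fast side. The muscle subunits Cox6a2 and Cox8b took 3.35% (2.18 to 4.91) and 3.08% (1.96 to 4.59) on the slow side, against 1.61% (1.01 to 2.43) and 2.49% (1.73 to 3.46) on the fast side, with overlapping intervals. The glycolytic genes Eno3 and Pgam2 had 19 and 17 UMIs on the fast side and 4 and 7 on the slow side. Car3, a carbonic anhydrase of slow fibers and fat, had 13 and 12, and Ampd1, an AMP deaminase, had 4 and 0. For these 4 genes the values are counts, and the fast side held more muscle fiber UMIs in all. Well B21 gave 7 of the 17 Pgam2 UMIs of the fast side, and O6 gave 5 of the 7 on the slow side.

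The 32 genes lie on 11 chromosomes of GRCm38, and the fast and slow genes of troponin C, troponin I and the light chains lie on different chromosomes. Tnnc2 lies at chr2:164777161-164779967 (minus strand) and Tnnc1 lies at chr14:31208312-31211729 (plus strand). Tnni2 lies at chr7:142441808-142444410 (plus strand) and Tnni1 lies at chr1:135779434-135810989 (plus strand). Mylpf lies at chr7:127208890-127214298 (plus strand) and Myl2 lies at chr5:122100951-122113472 (plus strand). Acta1 lies at chr8:123891769-123894751 (minus strand) and Mb lies at chr15:77015487-77050670 (minus strand). In the GENCODE M21 annotation, 15 members overlap a gene on the other strand and 2 (Myh7 and Ampd1) a gene on their own strand, and UMIs of those genes may include reads of the neighbor.

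Promoter sequence was set beside these groups, because the members were found together in the same few wells. RefSeq promoter windows of 300 bases on GRCm38.p6 (250 before the start and 50 after) were found for 24 members, and Tnni2, Tnnt3, Actn3, Myoz1, Tcap, Cox6a2, Car3 and Ampd1 were not matched. Below are the 250 bases before the start of 1 gene from each group, the member with the most UMIs among the 9 that have 1 window overlapping no exon. They lie at chr8:123894776-123895025 (minus strand), chr7:127211358-127211607 (plus), chr14:31208062-31208311 (plus) and chr7:140900447-140900696 (minus). The Mylpf window lies within the longer gene span that GENCODE gives. Capitals mark CANNTG, the E-box letters bound by myogenic factors, TATAAA, and the MEF2 and CArG consensus motifs, searched on both strands.
Acta1: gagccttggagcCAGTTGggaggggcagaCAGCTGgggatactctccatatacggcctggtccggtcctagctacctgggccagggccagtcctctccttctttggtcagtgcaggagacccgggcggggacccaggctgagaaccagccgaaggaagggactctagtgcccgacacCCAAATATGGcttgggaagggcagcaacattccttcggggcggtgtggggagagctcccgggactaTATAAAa
Mylpf: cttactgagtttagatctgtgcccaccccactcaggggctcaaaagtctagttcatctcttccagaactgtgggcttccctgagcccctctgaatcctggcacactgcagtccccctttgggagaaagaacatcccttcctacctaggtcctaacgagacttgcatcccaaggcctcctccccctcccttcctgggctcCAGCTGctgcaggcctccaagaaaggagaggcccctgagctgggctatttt
Tnnc1: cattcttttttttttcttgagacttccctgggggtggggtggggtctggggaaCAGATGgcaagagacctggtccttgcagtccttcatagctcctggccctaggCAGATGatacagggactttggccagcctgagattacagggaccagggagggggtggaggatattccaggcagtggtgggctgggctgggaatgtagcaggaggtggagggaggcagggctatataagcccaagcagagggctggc
Cox8b: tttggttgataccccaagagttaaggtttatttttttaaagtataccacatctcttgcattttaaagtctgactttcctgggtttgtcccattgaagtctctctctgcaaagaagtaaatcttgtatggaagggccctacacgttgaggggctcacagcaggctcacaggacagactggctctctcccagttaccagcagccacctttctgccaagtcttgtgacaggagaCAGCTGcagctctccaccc

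The sequence CAGCTG, a form of CANNTG, was found in 17 of the 31 member windows (54.8%) and in 5355 of all 32851 windows (16.3%). It is present above in Acta1, Mylpf and Cox8b and not in Tnnc1, which has 2 other CANNTG sequences. It was found for 14 of the 24 genes, 5 fast and 2 slow genes among them. CANNTG of any kind was in 26 of the 31 windows (83.9%) and 72.3% of all windows. TATAAA was in 8 (25.8%) and 13.6%, the CArG motif in 5 (16.1%) and 1.63%, and the MEF2 motif in 4 (12.9%) and 3.19%. Some members have several overlapping windows, and a match of letters does not show that a factor binds.

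Pooled levels followed the few rich wells. Muscle fiber genes gave 25.8 UMIs per 10000 (23.4 to 28.3) in kept wells of the 2-day sample. The 6-week sample gave 53.1 (49.6 to 56.9), and the 13-week sample gave 48.4 (44.5 to 52.5). Without the 1 richest well of each time point, the levels were 8.11 (6.81 to 9.58), 36.5 (33.6 to 39.6) and 27.1 (24.2 to 30.3). This left no rich kept well at 2 days, while the later time points kept theirs, so these levels are a description. Fast contractile genes gave 16.1 (14.3 to 18.1), 8.68 (7.28 to 10.3) and 15.9 (13.7 to 18.3). Slow contractile genes gave 1.11 (0.668 to 1.73), 15.3 (13.4 to 17.4) and 7.81 (6.29 to 9.58). Shared structural genes gave 4.85 (3.86 to 6.01), 16.1 (14.2 to 18.2) and 8.40 (6.83 to 10.2), and metabolic genes gave 3.68 (2.83 to 4.71), 13.1 (11.3 to 14.995) and 16.3 (14.1 to 18.8). These group levels rested on the same single wells. B21 gave 230 of the 276 fast UMIs at 2 days, and without it 46 were left among 170163 UMIs, so the order of the time points for fast genes depended on it. H13 gave 130 of the 240 slow UMIs at 6 weeks. At 13 weeks O6 gave 81 of the 92 slow UMIs, and it held 117 metabolic UMIs. In pooled sums such as these, fewer fibers and less RNA per fiber cannot be told apart.

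The slow share of fast and slow contractile UMIs therefore depended on the wells counted. In kept wells it was 6.44% (3.92 to 9.88) of 295 UMIs at 2 days, 63.8% (58.7 to 68.7) of 376 at 6 weeks and 33.0% (27.5 to 38.8) of 279 at 13 weeks. Without the well with the most slow UMIs, it was 45.6% (39.2 to 52.2) at 6 weeks, without H13, and 6.75% (3.42 to 11.8) at 13 weeks, without O6. Wells under 200 genes gave 5.41% (3.29 to 8.32) of 351 UMIs at 13 weeks. The 2-day share rested on well B21, and the kept wells without it gave 29.2% (18.6 to 41.8) of 65 UMIs. In kept wells, 6 weeks thus had the highest value with or without these wells. Its interval without H13 overlapped that of 2 days without B21, and plate and time point cannot be told apart there.

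**Figure D4:**
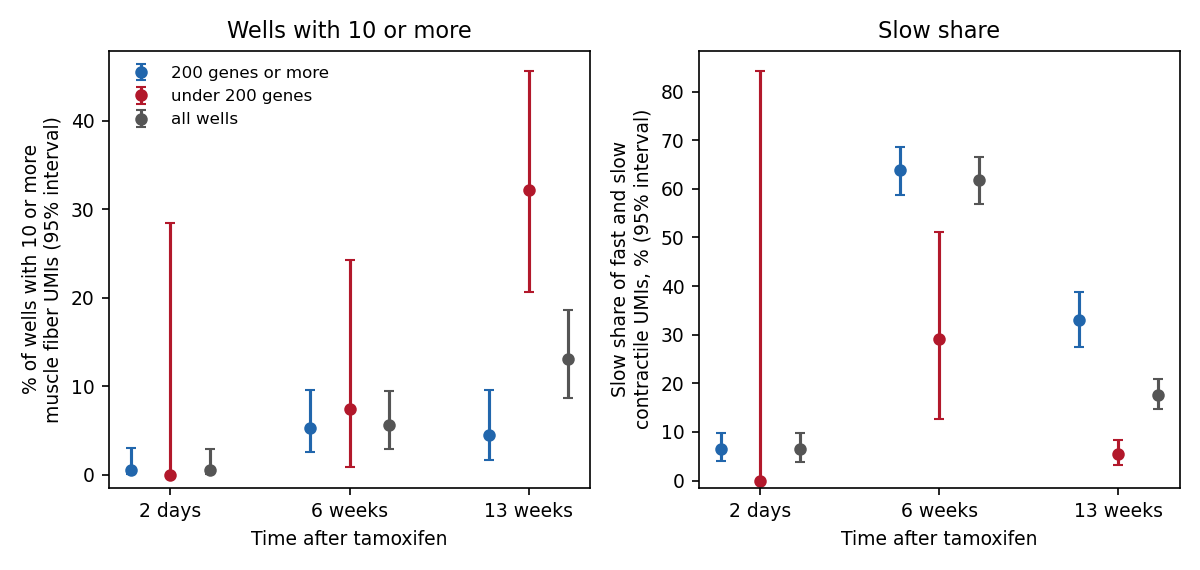
Left, the share of wells with 10 or more muscle fiber UMIs, and right, the slow share of fast and slow contractile UMIs, at each time point, for wells of 200 genes or more, wells under 200 genes and all wells, with 95% intervals for counting error. At 13 weeks the wells under 200 genes lie above the kept wells on the left (32.2% against 4.51%) and below them on the right (5.41% against 33.0%).

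Single genes were compared between time points in kept wells. From 2 days to 13 weeks, 12 of the 25 members with at least 10 UMIs in the pair were more than 2-fold higher in kept wells and 2 more than 2-fold lower, against a background in which 11.4% of all 4789 genes tested were higher and 11.7% lower. The 12 were Tnnt3, Atp2a1, Tnnc1, Tnnt1, Myl3, Tcap, Ldb3, Mb, Eno3, Cox6a2, Cox7a1 and Cox8b, and the 2 were Pvalb and Des. Single wells carried much of this count. Without O6, 4 of 20 members were higher (Atp2a1, Cox7a1, Mb and Tnnt3), none of them slow contractile genes, and 3 were lower (Des, Myh4 and Pvalb). Without B21, 19 of 21 were higher and 1 (Des) lower. Without both wells 12 of 14 were higher, 9 of them neither slow nor metabolic genes, and 1 lower. B21 was the only rich kept well of 2 days and held 303 of the 441 muscle fiber UMIs there. Leaving it out lowers the 2-day side by choice, so the counts without B21 are a description. Pvalb turned in direction, since B21 held 31 of its 36 UMIs at 2 days. Without B21 it stood at 0.294 per 10000 (0.0954 to 0.686) at 2 days, below the 1.02 at 13 weeks. Mb stood at 0.642 per 10000 (0.321 to 1.15) at the earlier and 9.17 (7.52 to 11.1) at the later time, of which well O6 gave 86 of 108 UMIs. Without O6 the later Mb level was 1.89 (1.19 to 2.87). Tnnt1 stood at 0.350 (0.129 to 0.763) and 4.58 (3.44 to 5.98), with 49 of 54 UMIs from O6, and at 0.430 (0.140 to 1.00) without it, which overlaps the earlier level. Leaving out the wells with 10 or more muscle fiber UMIs removes by choice most UMIs of these genes, so the next count is a description. There, 7 members still had enough UMIs, 0 of them were higher and 1 (Des) was lower. From 2 days to 6 weeks, 12 of 23 were higher and 3 (Myh4, Myoz1 and Pvalb) lower, where 12.9% of all 5444 genes were higher and 8.19% lower. All 5 slow genes with enough UMIs were among the 12, and 0 of the 8 fast genes. Myh4 had 19 UMIs at 2 days, all in B21, and was not listed for the 6-week plate. Myl2 had 1 UMI at 2 days and 81 at 6 weeks, or 5.17 per 10000 (4.10 to 6.42). Well H13 gave 46 of the 81, and without it the level was 2.25 (1.57 to 3.13). Without H13, 10 of 23 members were higher and 3 lower. Without B21, 18 of 19 were higher and 0 lower, with the fast genes Myl1, Mylpf, Tnnc2, Tnni2 and Tnnt3 among the 18. The contrast of slow and fast genes in this comparison thus rested on B21, and the count without it is a description. Without the rich wells, Car3 was higher and Mylpf and Tnnc2 lower among 7. Both comparisons use the same 2-day wells.

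Scattered single UMIs of muscle fiber genes were found in wells with markers of each cell type examined. The 229 kept wells with 1 to 9 UMIs held 338, and 160 of them had 1 UMI. Over all kept wells with under 10, 2-day wells had 8.11 per 10000 (6.81 to 9.58). The 6-week wells had 7.76 (6.42 to 9.29), and the 13-week wells had 7.18 (5.71 to 8.91). Of the wells with markers of other cell types, 31 of 65 wells with 5 or more UMIs of endothelial markers (47.7%, 35.1 to 60.5, median 743 UMIs) had a muscle fiber UMI. The share was 44.7% (33.9 to 55.9, median 663 UMIs) of 85 wells with perivascular markers, 47.4% (40.1 to 54.7, median 795.5) of 190 with tendon markers, 48.1% (42.2 to 54.0, median 900.0) of 287 with fibroblast markers and 53.1% (34.7 to 70.9, median 1200.0) of 32 with satellite cell markers. A well can count under several lists. Levels were 6.88, 8.01, 6.63, 6.35 and 5.84 per 10000 in the same order, with overlapping intervals. Differences between these sets were not tested. The endothelial list was led by Fabp4, which gave 979 of its 1543 UMIs and is not limited to endothelial cells. In these wells a muscle fiber UMI also rested on fewer reads. Members had 3.01, 2.12 and 2.93 reads per UMI in wells with 1 to 9 at 2 days, 6 weeks and 13 weeks, against 5.23, 7.62 and 5.83 for all other genes, while in kept wells with 10 or more they had 6.41, 6.49 and 5.05.

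The slow share of the scattered UMIs was higher on the 6-week plate than at 2 days. In kept wells with 1 to 9 it was 68.4% (43.4 to 87.4) of 19 UMIs at 6 weeks, 29.2% (18.6 to 41.8) of 65 at 2 days and 20% (8.44 to 36.9) of 35 at 13 weeks, and the values of the mixed plate overlapped. The 2-day share stood above its rich well, which had 0 slow UMIs (0% of 230, which allows up to 1.59%). Mb had 11 UMIs in 11 such wells at 2 days, while well B21 had 0. Over the kept wells of the mixed plate, the slow share was 26.0% (17.7 to 35.7) in wells with 1 to 9 and 17.9% (14.6 to 21.7) in rich wells, with overlapping intervals. With wells under 200 genes included, it was 22.2% (15.3 to 30.5) in wells under 10 and 12.7% (10.5 to 15.2) in rich wells, with intervals just apart. In kept wells of 6 weeks, rich wells stood at 63.6% (58.4 to 68.6), within the interval of the scattered UMIs. Where the scattered UMIs came from was not tested.

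Car3 and Des were examined further among the scattered UMIs. Car3 had 31 UMIs in 28 of 179 kept wells with under 10 at 6 weeks, 3 in 1 of 180 at 2 days and 0 in 127 at 13 weeks. Plate and time point cannot be told apart for Car3, and adipocyte markers had 5 UMIs in all 486 wells. Des, which satellite cells and pericytes are known to make, had 19 UMIs in 14 wells at 2 days, 14 in 14 at 6 weeks and 2 in 2 at 13 weeks. Of these 30 wells, 9 (30.0%) had a UMI of Pax7, the satellite cell factor, compared with 7.20% of all 486, and 7 (23.3%) had a UMI of Rgs5, a pericyte gene, compared with 24.3%. The 51 wells with Pax7 or Cdh15 held 13.4 muscle fiber UMIs per 10000 (10.2 to 17.3), 14 of the 60 UMIs being Des, and the 25 of them at 2 days held 18.9 (13.7 to 25.3), against 7.74 (6.94 to 8.62) in all 486 and 8.11 (6.81 to 9.58) in all 180 at 2 days. Without Des the 2-day values were 15.01 and 6.99. At 6 weeks such wells held 8.68 (4.48 to 15.2) against 7.76 in all 179, and at 13 weeks 5.28 (1.44 to 13.5) against 7.18 in all 127. The 2-day and 6-week intervals of these wells overlapped, and a difference between times was not tested. By the cutoff of 5 or more UMIs of satellite cell markers, the 10 wells of 2 days held 6.87 (3.14 to 13.0), not above all 180. The part of satellite cells in the scattered UMIs was not tested.

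Rich wells carried the muscle form of proteins that other cells make in a common form. Acta1 gave 219 of 224 UMIs of Acta1 and smooth muscle Acta2 (97.8%, 94.9 to 99.3) in the 17 kept wells with 10 or more, and 58 of 306 (18.95%, 14.7 to 23.8) in the other 486 kept wells. The oxidase subunit Cox6a2 gave 38 of 40 UMIs with its common form Cox6a1 (interval 83.1% to 99.4%), against 4 of 284 (1.41%, 0.385 to 3.57). Cox8b gave 45 of 46 with Cox8a (97.8%, 88.5 to 99.9), against 8 of 242 (3.31%, 1.44 to 6.41). Cox7a1 gave 15 of 34 with Cox7a2 (44.1%, 27.2 to 62.1), so the common form stayed present there. Ckm gave 42 of 42 with Ckb, and Eno3 gave 11 of 11 with Eno1, where the other wells gave 13 of 62 and 6 of 40. The wells were chosen by member UMIs, so these shares are a description. The rich wells also held far fewer UMIs in all (9339 against 436457), and the low counts of the common forms there are limited by that depth.

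**Figure D5:**
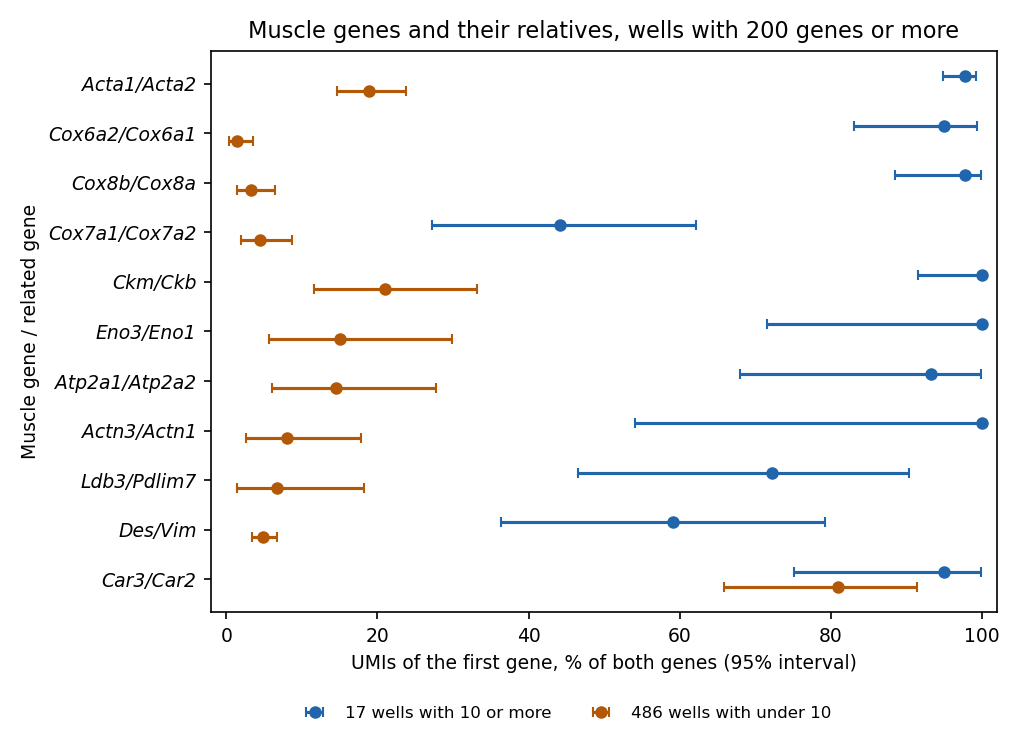
For 11 pairs of a muscle gene and a related gene, points give the share of the UMIs of both that came from the muscle gene, with 95% intervals, in the 17 kept wells with 10 or more muscle fiber UMIs and the 486 with under 10. The sets lie apart for 10 pairs and overlap for Car3 and Car2 (19 of 20 and 34 of 42 UMIs).

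Fiber genes outside the 32 were also abundant in the rich wells. Of 40 other fiber genes listed, 29 were higher with intervals apart in the 17 kept wells than in the other 486, 0 were lower, and the list gave 443 against 17.4 UMIs per 10000. Smpx, a small muscle protein, had 18 UMIs in 8 wells, or 19.3 per 10000 (11.4 to 30.5), and 0 in the others, which allows up to 0.0845. Tpm2, a tropomyosin of the thin filament, was 28.4-fold higher, the mitochondrial carrier Slc25a4 15.8-fold and the glycolytic enzyme Aldoa 17.9-fold. Several of these genes also sorted by side, over all 38 wells. Tpm1, the fast tropomyosin, had 74 UMIs in 24 fast-side wells, or 84.9 per 10000 (66.6 to 107), and 3 in 2 slow-side wells, or 6.44 (1.33 to 18.8). Tpm3, the slow tropomyosin, which was not on that list and is among the leading genes described below, had 57 UMIs in 6 of 7 slow-side wells and 0 in 31 fast-side wells. Myoz2, the slow partner of Myoz1, had 18 UMIs in 6 slow-side wells (38.6 per 10000, 22.9 to 61.0) and 4 in 2 fast-side wells (4.59, 1.25 to 11.7). Sln, a regulator of the calcium pump, had 17 in 3 slow-side wells and 0 on the fast side. None of these genes set the sides.

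Well O6 stood apart among the slow-side wells. It held all 36 UMIs of Myh3, Myl4 and Tnnt2 found in the 38 wells (13, 20 and 3), genes known from embryonic and regenerating fibers, and 1 UMI of Chrna1. Myog, Actc1 and Myh8 had 0 UMIs there. It also held both slow and fast genes, with 49 UMIs of Tnnt1, 16 of Tnnc1 and 5 of Tnni1 beside 23 of Myl1 and 9 of Myh4, and 0 of Tnni2, Tnnt3 and Mylpf. Acta1, which took 15.95% of slow-side muscle fiber UMIs, had only 4 of 255 there. Well O6 is 1 well, and whether it held 1 fiber or material of several was not tested.

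Summed marker lists of several other cells were lower in the kept rich wells than in the other kept wells. The satellite cell list had 2 UMIs, both Chodl, in the 17 kept wells (2.14 per 10000, 0.259 to 7.74), against 485 (11.1, 10.1 to 12.1) in the others. Chodl gave 318 of those 485. Pax7, Cdh15, Myf5 and Myod1 were at 0, but they had only 52, 26, 14 and 12 UMIs in the others. At this depth the intervals overlapped for all 9 genes of the list. Perivascular markers stood at 6.42 against 33.3 per 10000, endothelial at 4.28 against 35.4, fibroblast at 33.2 against 187 and tendon at 8.57 against 122. Acta2 was close, at 5.35 (1.74 to 12.5) against 5.68 (5.00 to 6.44), while Rgs5 had 0 UMIs against 645. Single genes were lower with intervals apart for 1 of 11 perivascular and 1 of 12 endothelial genes. The same held for 4 of 10 fibroblast and 6 of 9 tendon genes. Immune, Schwann and adipocyte markers were at 0, but they had only 36, 34 and 5 UMIs in the other 486 wells, so that this depth could not show a difference. Some dilution is built in, as muscle fiber genes take 5.56% to 29.0% of the UMIs of these wells. The osteoblast list was close, at 80.3 against 87.9 per 10000, with Col1a1 giving 57 of its 75 UMIs. Ibsp, a bone matrix protein gene of that list, was 3.10-fold higher in the rich wells, with 10 UMIs in 7 wells, or 10.7 per 10000 (5.13 to 19.7) against 3.46 (2.93 to 4.06). It was the only gene of the list with intervals apart. The other 6 overlapped, with Bglap at 7.50 against 9.58 and Alpl at 1.07 against 0.894.

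The 15 genes outside all lists with the highest ratio of kept rich wells to other kept wells were led by Chchd10, a mitochondrial protein (26 UMIs in 12 wells, 122-fold). Next came Tpm3 (35.1-fold) and the small heat shock protein Cryab (70 UMIs in 15 wells, 26.6-fold). Cox5a, Cox7c, Cox7b, Uqcrq, Cyc1, Ndufc1, Atp5g1 and Usmg5 of the respiratory chain were 8.28-fold to 11.8-fold higher, and Mrpl42, Fhl1, Gapdh and Ybx3 8.82-fold to 11.2-fold. These genes were chosen by that ratio, which is given as a description. Nuclear genes of the respiratory chain outside the members, a list made after these values were seen, took 9.02% of UMIs in the rich wells and 1.92% in the others. Genes of the mitochondrial genome went the other way, at 2.01% (188 of 9339 UMIs) against 5.61%, and at 0.986% against 4.15% at 6 weeks and 3.83% against 7.37% at 13 weeks. At 13 weeks this rested on well O6, and the other 5 rich wells gave 6.58% (5.55 to 7.75), with 0.549% to 10.8% in single wells.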

How the data were processed

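Single Tomato+ cells were sorted into 384-well plates and sequenced by a plate-based form of Drop-seq. The authors aligned reads to mm10 with STAR (2.5.4a, with Picard 2.9.3 and bcl2fastq 2.18.0.12 in the submitters' processing notes) and deposited tables of UMI counts and of read counts, with genes in rows, wells in columns and no normalization. Time points were taken from the sample line of each table, and 168 wells with no sample were not used. The plates share 216 barcodes among assigned wells.

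UMI counts were summed per well and gene list with Python 3.11.15, pandas 2.3.3 and numpy 2.4.6. Wells with 200 or more genes were kept, and levels are UMIs per 10000 over pooled wells. UMIs were not scaled by gene length, so levels of different genes are not compared. Exact Poisson and Clopper-Pearson intervals at 95% came from scipy 1.17.1, and differences used a hybrid of the latter. Genes past 2-fold needed 10 UMIs over both time points. No doublets were called. The fold and interval steps were tested on simulated data.

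The 32 genes, the other lists and the cutoff of 5 marker UMIs were chosen with earlier results of these data known. The text names the 32 genes, genes of the lists and their partners, and the 15 genes outside the lists with the highest ratio in rich wells (10 or more UMIs in 4 or more wells). All 32 have a place in GENCODE M21 (GRCm38), and 15 overlap a gene on the other strand. The use of strand in counting is not given in the sources used here, so reads of such pairs may be mixed. Alternatives varied the gene minimum, the class limit, reads or UMIs, single genes and wells, depth and pooling.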

Additional observations from a re-analysis of the deposited data

How the results depend on the processing

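Of 103 values recomputed under 16 alternatives, 74 stayed within the 95% interval or within 1.5 times of the reported one, 29 moved and 0 reversed. Reversed means a change of sign, which only the differences in the share of wells could show. Shares, levels and counts cannot fall below 0. The 103 values do not include the wells left out after seeing the data, where Pvalb turned in direction. Among wells with at least 100 genes, 12.9% had 10 or more muscle fiber UMIs at 13 weeks, 12.4 points above 2 days, with 89.7 UMIs per 10000 and a slow share of 18.5%. With no gene minimum these were 13.0%, 12.5 points, 93.3 and 17.6%. With at least 300 genes, the share of wells was 2.05% at 6 weeks, the level 36.1 per 10000 at 6 weeks and 37.1 at 13 weeks, and the slow share 77.1% and 49.7%. Read counts, with the limit at 10 reads, gave 5.52% of wells at 2 days. The levels by reads were 40.8 and 41.8 per 10000 reads at 6 and 13 weeks. Without the deepest 5% of wells, the levels were 30.7, 63.4 and 54.6 per 10000 at 2 days, 6 weeks and 13 weeks. The mean of the share of each well gave 82.4 at 6 weeks and 69.9 at 13 weeks. Without the richest well the levels were 8.11, 36.5 and 27.1, and without the well with the most slow UMIs the slow share was 45.6% at 6 weeks and 6.75% at 13 weeks. In wells with 10 or more only, it was 0% at 2 days. With a minimum of 20 UMIs, 355 genes instead of 1109 passed 2-fold from 2 days to 13 weeks and 361 instead of 1147 to 6 weeks, since fewer genes were tested. The difference in the share of wells between 6 weeks and 2 days, 4.74 points (1.05 to 8.997), had an interval reaching below 0 under the same 4 alternatives as that of 13 weeks, at 1.37, 1.35, 3.08 and 3.802 points. Leaving out the richest wells by gene, for the 2-fold counts and for mitochondrial UMIs was chosen after seeing the data. From 2 days to 13 weeks, 4 members were higher without O6 and 19 without B21, and 1 was lower without B21 or without both. To 6 weeks, 0 were lower without B21 or without both B21 and H13. B21 was the only rich kept well of 2 days, so the counts without it are a description. For the moves other than those from fewer wells or genes, the cause was not tested. Most single genes of a well rest on 1 UMI, so a gene at 0 is not shown to be absent. No paired analysis was possible because each time point was 1 pool of mice with no replicate and the comparisons come from no test.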
